A study of Arabidopsis thaliana with 12 samples.

Results

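The cytosolic ribosomal protein genes of Arabidopsis thaliana were followed through leaf ageing, in the third and the fourth leaf. The list held 49 loci for proteins of the large subunit (RPL), the small subunit (RPS) and the stalk (RPP) and for the scaffold protein RACK1A. A locus was a member if it had a row among the 21266 loci of the authors' table, which held for 48 of the 49, and all 48 were among the 19152 genes tested. The locus without a row, AT1G57860, was measured by the arrays all the same and changed with age in Col by -0.46 ± 0.19 on the log2 scale (limma adjusted p = 0.048). The 4 groups were gvs1-1 plants at DAE28, Col plants at DAE28, gvs1-1 plants at DAE14 and Col plants at DAE14, each with 3 independent biological samples on 1 one-colour Agilent array per sample, 12 arrays in all. Harvest came 5 h after the lights went on, after 23 days on soil for DAE14 and 37 days for DAE28, in a day with 16 h light and 8 h darkness. Col is a laboratory ecotype, and gvs1-1 is given as a genotype; DAE is not spelled out, and neither the gene behind gvs1-1 nor the kind of lesion is given in the sources used here, so a check of the targeted gene was not made. The design compares leaf age within each genotype, genotype at each stage, and the age change between genotypes.

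Cytosolic ribosomes translate the messages of nuclear genes, and each ribosomal protein of Arabidopsis is made from a small family of near-identical genes. A growing leaf needs many new ribosomes, whereas a senescing leaf takes apart its chloroplasts and exports the nitrogen, and cytosolic translation goes on while the plastids are dismantled. The supply of ribosomal proteins is tied to the growth-promoting kinase TOR, which acts through S6 kinases that phosphorylate the small-subunit protein S6.

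RefSeq gave a gene symbol for 25 of the 48 members, of which 14 belong to the large subunit and 11 to the small one with RACK1A. The other 23 carry only a locus tag and are named by it. Levels are log2 processed signals relative to the 75th percentile of the array's probes, so 0 is the 75th percentile and 1 unit is 1 doubling, and they are compared within a probe and not between genes. The members were bright: the median member stood 2.98 above the 75th percentile, higher than 93.4% of the genes tested, and all 48 were well above background on all 12 arrays. The dimmest was AT5G39850, with a mean of -1.15, the single member below the 75th percentile. In what follows, ± after a difference is its standard error, ± after a group mean is the SD of 3 arrays, and a gene is said to rise or fall only at a limma adjusted p below 0.05 over all 19152 genes.

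The signal at the 75th percentile was 1172 to 1577 units on the DAE28 arrays and 704 to 895 units on the DAE14 arrays. The arrays came from 3 slides scanned on 2 days, and the groups were spread unevenly over them. Slide 1 held all 3 Col DAE14 arrays and replicate 1 of Col DAE28. Slide 2, scanned on the other day, held replicates 2 and 3 of Col DAE28 and replicates 1 and 2 of gvs1-1 DAE14. Slide 3 held all 3 gvs1-1 DAE28 arrays and replicate 3 of gvs1-1 DAE14. Across all members, replicate 1 of Col DAE28 stood apart from its group. The median level of the 48 members was 2.91, 2.96 and 3.19 in gvs1-1 DAE28, 3.06, 2.56 and 2.51 in Col DAE28, 3.34, 2.93 and 2.99 in gvs1-1 DAE14, and 3.23, 3.00 and 2.97 in Col DAE14. The Col DAE28 array on slide 1 thus lay within the range of the Col DAE14 arrays, which shared its slide, while the other Col DAE28 arrays lay below every other array. The gvs1-1 DAE14 arrays of that same slide 2 were not low, at 3.34 and 2.93, against 2.99 for the gvs1-1 DAE14 array on slide 3.

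**Figure D1:**
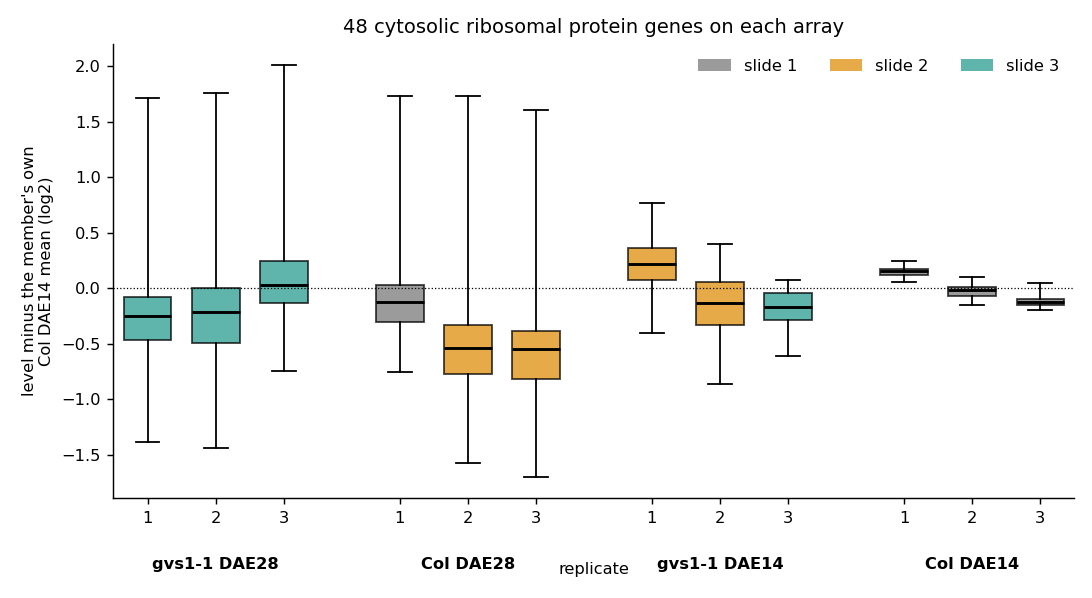
Level of each of the 48 members on each array minus that member's own mean over the 3 Col DAE14 arrays (log2). Each box spans the quartiles over members, the bar is the median, the whiskers reach the lowest and highest member, and colours mark the slide. Replicates 2 and 3 of Col DAE28, both on slide 2, sit lowest; the upper whiskers at DAE28 are AT5G39850.

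In Col, 23 of the 48 members fell with age and most of the others leaned the same way without passing, a result that depended on the arrays and the scaling. At DAE28 against DAE14, 47.9% of the members fell and 1 rose, with a median difference of -0.42 and a middle range over members of -0.58 to -0.24. Over all genes tested 36.3% fell and 35.7% rose, with a median of 0.01, so with these settings falls ran above the background and rises below it. The difference was below 0 in 44 of the 48 members, against 49.5% of all genes. The median corresponds to a change in signal of -25.2%, and the largest fall, in EMB2296, to -60.2%. Of the large-subunit members with a symbol 7 of 14 fell (50%, median -0.44), and of the members named by locus 12 of 23 (52.2%, median -0.47). Of the small-subunit members with a symbol 4 of 11 fell (median -0.33). That is 36.4%, about the 36.3% of all genes, although the median was below 0. In bulk leaf tissue, fewer cells of a type and less RNA per cell cannot be told apart.

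The count in Col leaned on the arrays of slide 2. Within slide 1, where replicate 1 of Col DAE28 can be set against the 3 Col DAE14 arrays, 2 members fell and 1 rose, and the median difference was -0.12, where 31.0% of all genes fell. With the slide as a block in the fit 2 fell and 2 rose, or 4.2% falling against 31.1% of all genes, and with the scan day as a block 9 fell and 1 rose (median -0.36), or 18.8% falling against 33.4%. The slide fit takes the age difference in Col from slide 1 alone, so it repeats the within-slide estimate and also rests on replicate 1 of Col DAE28. Without replicate 1 of Col DAE28 34 members fell, or 70.8% against 36.7% of all genes. Without replicate 2 or replicate 3 of Col DAE28 the falls were 11 and 12, of 48 where 34.1% and 34.3% of all genes fell, and without replicate 1 of Col DAE14 they were 10, or 20.8% against 33.5%. Falls were thus rarer than the background in each of the settings above but that without replicate 1 of Col DAE28. Other settings left falls above the background. The share was 41.7% against 24.3% of all genes with normexp background correction, and 58.3% against 36.7% with the mean of kept probes. With only probes above background on all arrays it was 52.1% against 36.9%, and without replicate 3 of Col DAE14 50% against 33.7%. The median stayed below 0 under every scaling tried, at -0.24 with quantile normalization, -0.25 with median centring, -0.48 with normexp background correction and -0.30 in the authors' deposited table. Quantile normalization called 3 members higher and 14 lower, so that 29.2% fell against 33.1% of all genes, and median centring called 9 lower, or 18.8% against 30.7%, both below the background. The authors' deposited table gave 4 higher and 17 lower, or 35.4% falling against 31.7%. With no filter on dim probes 22 fell, or 45.8% against 43.0% of all genes, whose median was then -0.33, so that the members' median lay -0.09 from it. Median centring moved the median of all genes to 0.18 and quantile normalization moved it to 0.12; relative to that, the members' median was -0.43 and -0.36.

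Among the large-subunit proteins, EMB2296, a locus named for the embryo arrest of its mutants, fell most. Its level was 4.36, 3.50 and 3.37 in Col DAE28, against 5.17, 5.17 and 4.88 in Col DAE14. The groups did not overlap, and the array of slide 1 was the highest at DAE28. The difference was -1.33 ± 0.27 (limma adjusted p = 0.0012), and -0.71 within slide 1 (limma adjusted p = 0.028); with the slide as a block the same value missed the threshold (limma adjusted p = 0.062). RPL3A, whose protein reaches into the peptidyl transferase centre, had 3.54, 2.91 and 3.02 in Col DAE28, against 4.21, 4.06 and 3.88 in Col DAE14. All DAE28 arrays were lower, by -0.89 ± 0.20 on average (limma adjusted p = 0.0027). PGY1, one of the PIGGYBACK genes that affect leaf polarity, fell by 0.86 ± 0.18 (limma adjusted p = 0.0014) and was called lower in 25 of the 26 settings tried. Tallies of settings, here and below, include fits without an array of a group outside the comparison. Such fits leave the difference as it is and can change only its test. RPL5A, also known as PIGGYBACK3, encodes the partner of 5S ribosomal RNA and fell by 0.53 ± 0.18 (limma adjusted p = 0.019), a call made in 19 settings. PGY2, another of the PIGGYBACK genes, differed by -0.39 ± 0.13 (limma adjusted p = 0.020) but by 0.23 with quantile normalization and by 0.32 in the authors' deposited table, so its direction depended on the scaling. Of the 26 settings, EMB2296 was called lower in 24, RPL3A in 23 and PGY2 in 17, with PGY2 called higher in 1. RPL10A, linked to antiviral signalling by the receptor kinase NIK1, differed by -0.06 ± 0.13 (limma adjusted p = 0.69), but by 0.67 under quantile normalization and by 0.42 in the authors' deposited table, both past the threshold.

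Among the members named by locus, AT3G09200 had 1.91, 1.35 and 1.24 in Col DAE28, against 2.80, 2.67 and 2.52 in Col DAE14. The groups did not overlap, and the array of slide 1 was again the highest at DAE28. The difference was -1.16 ± 0.21 (limma adjusted p = 0.00061) and, within slide 1, -0.75 (limma adjusted p = 0.018), it passed with the slide as a block too (limma adjusted p = 0.035), and its 3 probes all fell, by -1.16 to -1.44. AT1G01100, which has 4 probes, fell by 0.41 ± 0.16 (limma adjusted p = 0.037) and was called in 14 of 26 settings. AT2G41840 stood at 1.42, 0.54 and 0.72 in Col DAE28, against 2.15, 1.89 and 1.72 in Col DAE14, a difference of -1.03 ± 0.26 (limma adjusted p = 0.0046); it was called lower in 23 settings and AT3G09200 in 25. RPS13A, whose mutants have pointed early leaves, fell by 0.49 ± 0.15 (limma adjusted p = 0.015), called in 18 of 26 settings, and RPS15 fell by 0.33 ± 0.13 (limma adjusted p = 0.047), called in 9. RPS6A, a substrate of the S6 kinases, stood at 2.83, 2.47 and 2.52 in Col DAE28, against 3.15, 3.11 and 2.94 in Col DAE14; the arrays did not overlap, yet the difference of -0.46 ± 0.20 missed the threshold (limma adjusted p = 0.059). RACK1A, a scaffold on the head of the small subunit, also missed it, with -0.29 ± 0.17 (limma adjusted p = 0.14), as did AT3G09630 with -0.14 ± 0.18 (limma adjusted p = 0.51) and AT1G34030 with -0.25 ± 0.17 (limma adjusted p = 0.21). The 95% intervals of these 4 members reached down to -0.90, -0.66, -0.55 and -0.63 in the order named, so each still held the size of fall seen for RPL5A. Tested by probe, 1 of 2 probes of RPS6A and 2 of 3 of RACK1A passed as lower, as did 1 of 3 of AT3G09630. The lowest probes stood at -0.55, -0.66 and -1.02. AT1G34030 has a single probe.

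AT5G39850 went the other way. It had -0.36, -0.31 and -0.06 in gvs1-1 DAE28, against -1.89, -1.68 and -2.07 in gvs1-1 DAE14, and -0.35, -0.35 and -0.47 in Col DAE28, against -2.01, -2.19 and -2.03 in Col DAE14. Every DAE28 array was above every DAE14 array in both genotypes. The rise was 1.63 ± 0.12 in gvs1-1 (limma adjusted p = 4.3e-06), a gain of 210.2%, and 1.69 ± 0.12 in Col (limma adjusted p = 9.8e-07), a gain of 222%. It passed in all 26 settings in each genotype, including within slide 3 in gvs1-1 (1.82) and within slide 1 in Col (1.73). It rests on a single probe. RPL24B, which is needed for reinitiation of translation downstream of upstream reading frames in auxin response factor messages, was the next highest in Col at 0.14 ± 0.13 (limma adjusted p = 0.34), followed by RPS18C at 0.06 ± 0.11 (limma adjusted p = 0.64) and AT4G10450 at 0.03 ± 0.20 (limma adjusted p = 0.89).

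In gvs1-1, few of these genes passed the test. At DAE28 against DAE14, 7 of the 48 members fell and 2 rose, where 30% of all genes fell and 31.4% rose, so both counts were below the background. The median difference over members was -0.10, with a middle range of -0.28 to 0.12, against 0.06 for all genes. The direction of that median was not stable: it was 0.14 with quantile normalization and 0.02 in the authors' table, with 9 higher and 1 lower in the quantile fit and 10 higher and 1 lower in the authors' deposited table, and 0.04 with the slide as a block. The share of members higher was 18.8% against 34.4% of all genes in the quantile fit, and 20.8% against 31.3% in the authors' deposited table. Within slide 3, where replicate 3 of gvs1-1 DAE14 faces the 3 gvs1-1 DAE28 arrays, 0 members fell by limma and 1 rose; 3 members, in either direction and with the riser among them, passed an unadjusted p of 0.05. Over all slides, the number of falls was 2 without replicate 1 of gvs1-1 DAE14, where 27.05% of all genes fell. It was 1 without replicate 1 or without replicate 2 of gvs1-1 DAE28, where 27.27% and 27.63% of all genes fell.

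RPL24A had the deepest fall in gvs1-1. Its level was 1.53, 1.53 and 1.81 in gvs1-1 DAE28, against 2.95, 2.44 and 2.17 in gvs1-1 DAE14, a difference of -0.90 ± 0.19 (limma adjusted p = 0.0023). In Col it was 1.74, 1.45 and 1.42 at DAE28, against 2.49, 2.25 and 2.18 at DAE14, a difference of -0.77 ± 0.19 (limma adjusted p = 0.0044). The stages did not overlap in either genotype, and the fall in gvs1-1 was called in 23 of 26 settings. RPS6A had 2.62, 2.60 and 2.83 in gvs1-1 DAE28, against 3.83, 3.07 and 3.05 in gvs1-1 DAE14, and fell by 0.63 ± 0.20 (limma adjusted p = 0.019). AT3G09200 fell by 0.60 ± 0.21 (limma adjusted p = 0.031), PGY1 fell by 0.47 ± 0.18 (limma adjusted p = 0.042), AT2G47610 fell by 0.46 ± 0.16 (limma adjusted p = 0.033) and RPL5A fell by 0.45 ± 0.18 (limma adjusted p = 0.045). Of the 26 settings, RPS6A and AT3G09200 were called in 16 each, AT2G47610 in 13, PGY1 in 9, RPL5A in 8 and RPL23aA in 5. RPL23aA fell by 0.37 ± 0.15 (limma adjusted p = 0.049), but stood at 0.03 under quantile normalization. EMB2296, with -0.60 ± 0.27, missed the threshold (limma adjusted p = 0.076), though tested by probe 1 of its 2 probes passed as lower.

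RPS18C rose in gvs1-1. It had 4.52, 4.65 and 4.58 in gvs1-1 DAE28, against 4.42, 4.21 and 4.16 in gvs1-1 DAE14, a difference of 0.32 ± 0.11 (limma adjusted p = 0.030), and was called higher in 18 of 26 settings. The largest positive values after AT5G39850 were AT2G37190 with 0.38 ± 0.22 (limma adjusted p = 0.15), RPS5A, an isoform known from dividing cells, with 0.33 ± 0.17 (limma adjusted p = 0.11), and AT4G10450 with 0.33 ± 0.20 (limma adjusted p = 0.18). Values for the rest of the fixed panel were -0.28 ± 0.13 for RPL10A, 0.15 ± 0.13 for RPL24B, -0.10 ± 0.15 for RPS13A, -0.06 ± 0.17 for RACK1A, 0.29 ± 0.18 for AT3G09630, -0.20 ± 0.17 for AT1G34030 and -0.10 ± 0.16 for AT1G01100, and none of them passed, at limma adjusted p values of 0.094 or more.

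**Figure D2:**
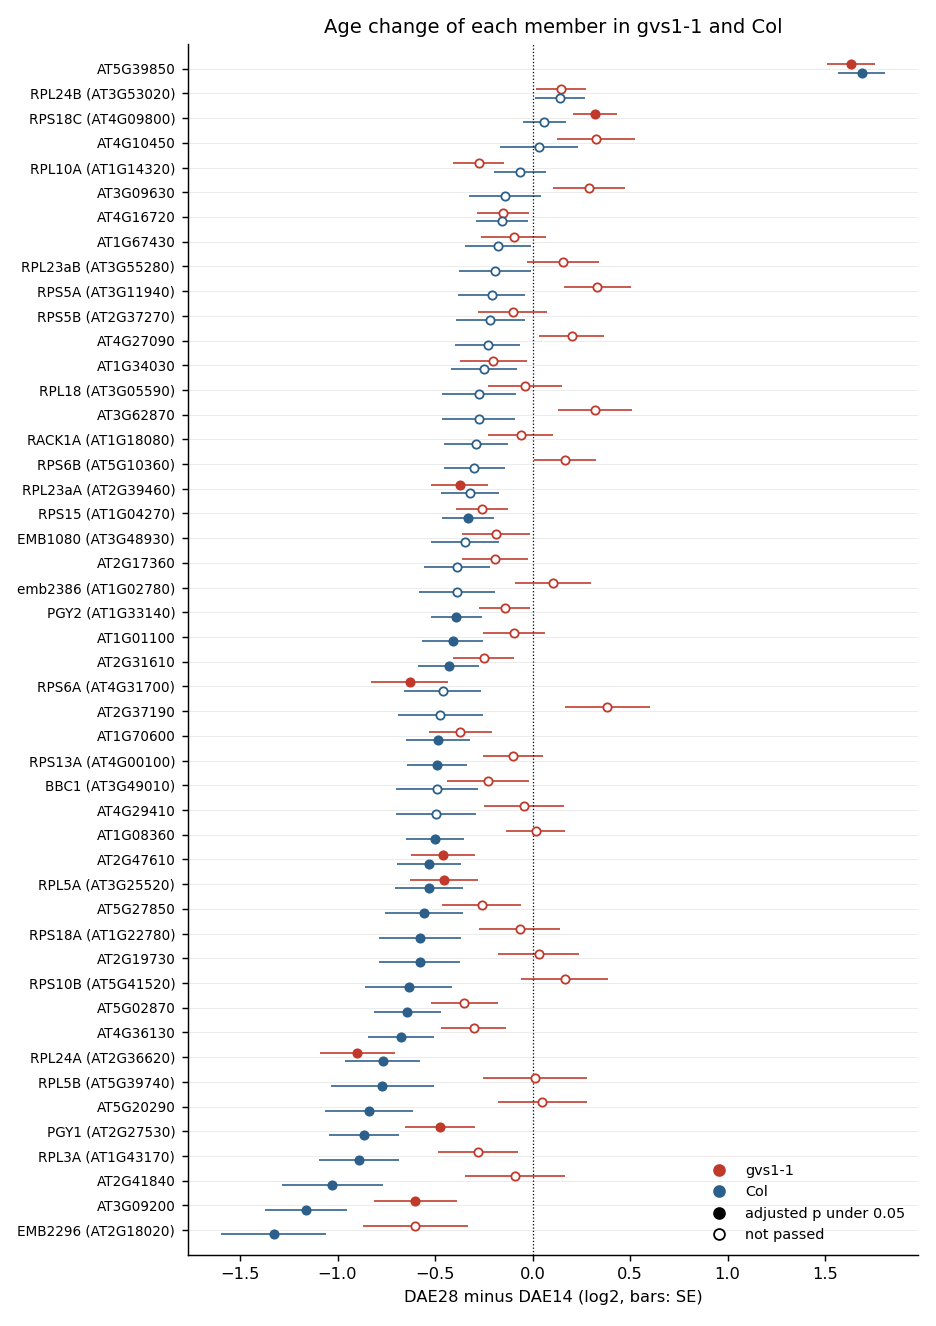
Age change (DAE28 minus DAE14, log2) of each member in gvs1-1 and in Col, ordered by the value in Col; bars are standard errors and filled points have a limma adjusted p under 0.05. In gvs1-1 31 of 48 points lie left of 0, in Col 44 of 48, and AT5G39850 lies far right in both.

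The ranking of members was partly shared by the genotypes, which were measured on separate arrays. Across the 48 members the age change in gvs1-1 followed that in Col with Pearson's r = 0.76 and Spearman's rho = 0.51, and with 0.54 and 0.47 over the 47 members without AT5G39850; these are correlations across genes, which are not independent replicates. 5 members fell in both genotypes (AT2G47610, AT3G09200, PGY1, RPL24A and RPL5A) and 1 rose in both. By its own test 2 more fell in gvs1-1 alone, RPL23aA and RPS6A, and 18 in Col alone, but a test passed in one genotype and not in the other does not show a difference.

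The test of that difference, the age change in gvs1-1 minus the age change in Col, called 0 of the 48 members with limma, where 18.7% of all genes were called in either direction. At an unadjusted p of 0.05 there were 6 members. The value was above 0 in 43 of 48, with a median of 0.29, against 54.8% of all genes and a median of 0.07. The highest were AT2G41840 with 0.94 ± 0.36 (limma adjusted p = 0.097), AT5G20290 with 0.89 ± 0.32 (limma adjusted p = 0.080), AT2G37190 with 0.85 ± 0.31 (limma adjusted p = 0.079) and RPS10B with 0.80 ± 0.32 (limma adjusted p = 0.10). The lowest were RPL10A with -0.21 ± 0.19, RPS6A with -0.17 ± 0.28, RPL24A with -0.13 ± 0.27 and RPL23aA with -0.05 ± 0.21, at limma adjusted p values of 0.44 or more. Of the fixed panel, RPS5A had 0.54 ± 0.24, RPS18A 0.51 ± 0.30, RPS6B 0.46 ± 0.22, AT3G09630 0.43 ± 0.26, RPS13A 0.39 ± 0.22, AT3G09200 0.56 ± 0.30, AT1G01100 0.31 ± 0.22, RPS18C 0.26 ± 0.16 and RACK1A 0.23 ± 0.23, with limma adjusted p values of 0.14 to 0.51. RPL5A (0.08 ± 0.25), RPS5B (0.11 ± 0.25), AT1G34030 (0.05 ± 0.24) and RPL24B (0.01 ± 0.18) were the panel members closest to 0. In the same test, 6 of 6 mesophyll markers (median 1.13) and 2 of 4 measured epidermis and trichome markers (median 0.75) were called higher. Of 5 guard cell markers 0 were called higher and 1 lower (median -0.30), and of 6 vascular markers 0 were called (median 0.02). The part of the markers in the members' values was not tested. One array moved this result: without replicate 1 of Col DAE28, 12 of the 48 members were called higher, where 14.1% of all genes were, and within scan day 1, where that array stands alone for Col DAE28, the median was 0.14. Over all genes the calls were 1898 higher and 1674 lower, but 1129 and 2405 with median centring and 546 and 926 with normexp, where the all-gene median was -0.11 and the members' median 0.50 above it.

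At DAE28, signal for these genes leaned higher in gvs1-1 than in Col. The gvs1-1 minus Col difference passed in 5 members, all of them higher in gvs1-1, and in 0 members lower, where 17.9% of all genes were higher and 15.1% lower; 12 members passed an unadjusted p of 0.05. The count is below the background share, while the direction was shared: 46 of 48 members had a positive value, against 53.5% of all genes, with a median of 0.27 against 0.04. Of the leaf cell type markers, 3 of 6 for mesophyll and 3 of 4 measured for epidermis and trichomes were also higher in gvs1-1 at DAE28 (medians 0.39 and 0.74). Of 5 guard cell markers 0 were higher and 1 was lower (median -0.04). Of 6 vascular markers 1 was higher and 1 lower (median 0.10). The part of the markers in the members' difference was not tested. This comparison uses the same DAE28 arrays as the age comparisons and repeats their uneven layout, gvs1-1 DAE28 on slide 3 and most of Col DAE28 on slide 2. Within scan day 1, with the single Col DAE28 array of slide 1, the members' median was -0.04 and 0 were higher and 1 lower. With the slide as a block the median was 0.62 and with the scan day as a block 0.21, and 0 members passed in either fit, where 22 and 3 passed an unadjusted p of 0.05. No slide holds both genotypes at DAE28, so the slide fit links them only through the gvs1-1 DAE14 arrays on slides 2 and 3. The number higher was 16 without replicate 1 of Col DAE28, or 33.3% against 18.2% of all genes. It was 1 without replicate 2 or without replicate 3 of Col DAE28, or 2.1% against 13.62% and 16.8%. Without replicate 2 and without replicate 3 of gvs1-1 DAE28 it was 2 and 1, or 4.2% and 2.1% against 13.36% and 14.08%. Quantile normalization called 10 higher and 1 lower, and the authors' deposited table called 10 higher and 0 lower. That is 20.8% of members higher in each, against 17.2% and 15.01% of all genes, so in these settings the count stood above the background. Over all genes the calls were 3437 higher and 2900 lower, and turned to 2646 and 3438 with median centring and 1630 and 2120 with normexp, where the all-gene median was -0.12 and the members' was 0.33, which is 0.45 above it.

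AT3G62870 differed most by genotype at DAE28. It had 1.25, 1.41 and 1.85 in gvs1-1 DAE28, against 0.96, 0.51 and 0.77 in Col DAE28, with no overlap, a difference of 0.76 ± 0.19 (limma adjusted p = 0.013), and was called higher in 22 of 25 settings. AT2G37190 had 3.10, 3.18 and 3.77 in gvs1-1 DAE28, against 3.09, 2.52 and 2.49 in Col DAE28, a difference of 0.65 ± 0.22 (limma adjusted p = 0.043), and here the groups almost touched at the slide 1 array. AT1G08360 was higher by 0.50 ± 0.15 (limma adjusted p = 0.027). RPS6B was higher by 0.48 ± 0.16 (limma adjusted p = 0.039), with 2.57, 2.66 and 2.71 in gvs1-1 DAE28 and 2.42, 2.14 and 1.92 in Col DAE28. RPS18C was higher by 0.39 ± 0.11 (limma adjusted p = 0.023), with 4.34, 4.09 and 4.14 in Col DAE28. Of the 25 settings, AT1G08360 and RPS18C were called higher in 16 each, RPS6B in 11 and AT2G37190 in 10. AT2G19730 and RPS10B had 0.57 ± 0.21 and 0.57 ± 0.22 but overlapping arrays (limma adjusted p = 0.057 and 0.074).

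The 4 lowest differences at DAE28 were RPL10A with -0.30 ± 0.13 (limma adjusted p = 0.11), emb2386 with -0.03 ± 0.19, BBC1 with 0.06 ± 0.21 and RPS6A with 0.08 ± 0.20. RPL10A had 4.66, 4.68 and 4.83 in gvs1-1 DAE28, against 5.25, 4.99 and 4.82 in Col DAE28, so the groups overlapped. Within the panel, RPS18A had 0.39 ± 0.21, RPS13A 0.38 ± 0.15, AT3G09200 0.45 ± 0.21, AT1G01100 0.43 ± 0.16, RACK1A 0.35 ± 0.17, RPL5A 0.27 ± 0.18, AT3G09630 0.27 ± 0.18, AT1G34030 0.27 ± 0.17, RPS5A 0.24 ± 0.17, RPS5B 0.13 ± 0.18 and RPL24B 0.11 ± 0.13. None of these passed, at limma adjusted p values of 0.058 to 0.61, though tested by probe 1 of the 4 probes of AT1G01100 passed as higher.

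At DAE14 the genotypes were not told apart by these genes. With limma 0 of 48 members passed, 1 passed an unadjusted p of 0.05, and 0.313% of all genes were called in either direction. The all-gene calls were 9 higher and 51 lower, against 14 and 22 in the authors' deposited table and 20 and 26 after quantile scaling. The median over members was -0.02, and 0.46 with the slide as a block, a fit that links the genotypes at DAE14 only through the DAE28 arrays because no slide holds both. The largest differences were negative: EMB2296 with -0.59 ± 0.27 (limma adjusted p = 0.31), emb2386 with -0.52 ± 0.19 (limma adjusted p = 0.22), RPL5B with -0.49 ± 0.26 (limma adjusted p = 0.39) and AT5G20290 with -0.42 ± 0.23 (limma adjusted p = 0.39). They rest on the chosen probe: the mean of the other probes was -0.07, 0.06, 0.06 and 0.08 in that order. Of the 35 members with more than 1 probe, 14 had probes of opposite sign at DAE14. The largest positive ones were AT4G16720 with 0.26 ± 0.13, RPS6A with 0.25 ± 0.20, AT2G47610 with 0.24 ± 0.16 and AT2G17360 with 0.24 ± 0.17 (limma adjusted p values of 0.37 to 0.57). The panel members lay between -0.31 ± 0.17 (RPS5A) and 0.25 ± 0.20 (RPS6A), all with limma adjusted p values of 0.40 or more.

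**Figure D3:**
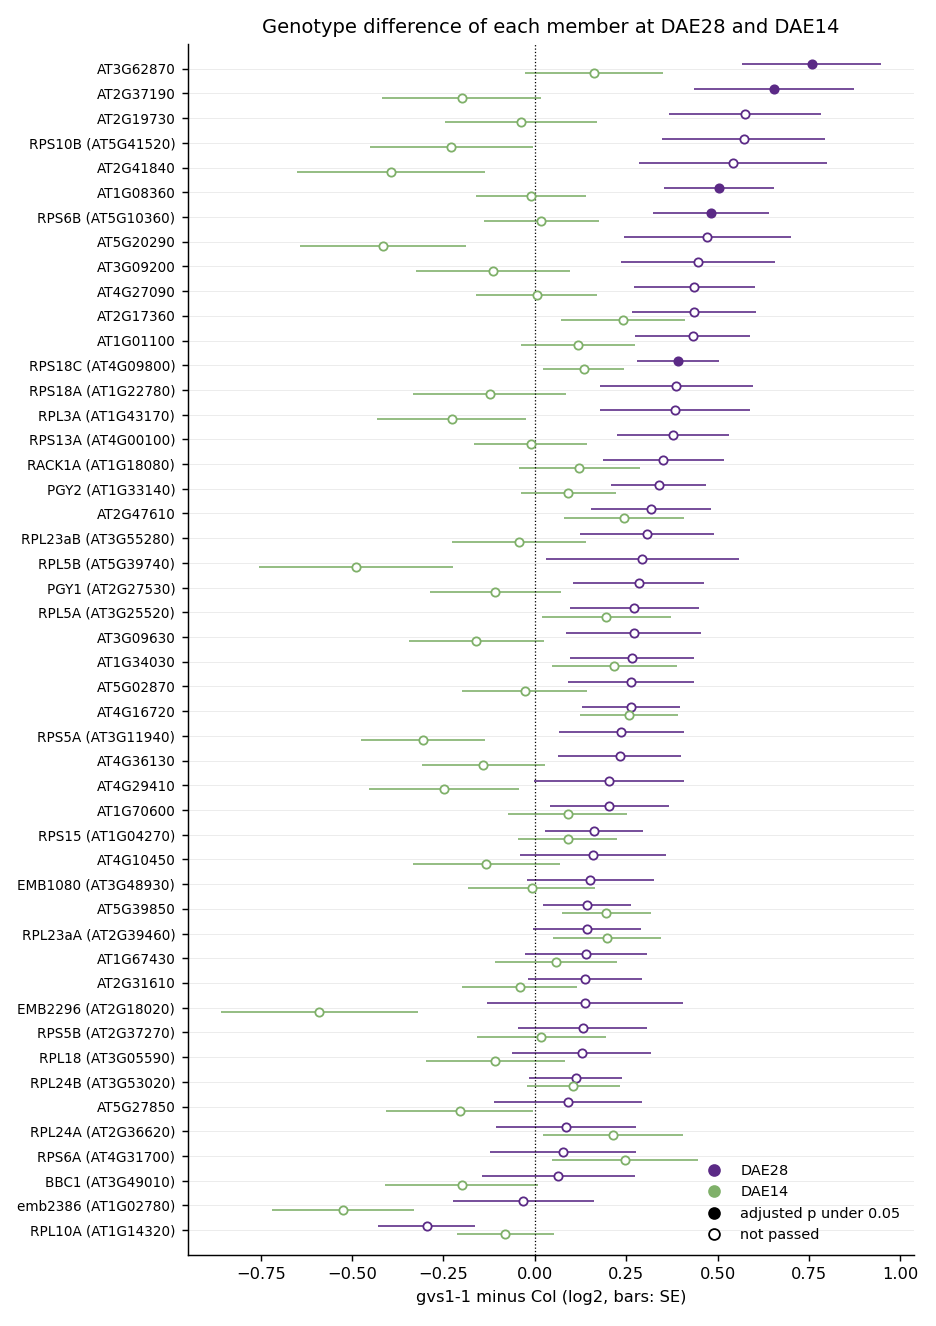
Genotype difference (gvs1-1 minus Col, log2) of each member at DAE28 and at DAE14, ordered by the value at DAE28; bars are standard errors and filled points have a limma adjusted p under 0.05. At DAE28 46 of 48 points lie right of 0 and 5 are filled; at DAE14 21 of 48 lie right of 0 and none is filled.

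Paralogues of one protein did not always move alike, although the difference between paralogues was not tested, and neither was cross-hybridisation between their near-identical messages. For L24, RPL24A fell in both genotypes while RPL24B stood at 0.15 ± 0.13 in gvs1-1 and 0.14 ± 0.13 in Col, and all 3 probes of RPL24B were positive in both. For S18, RPS18A differed with age by -0.07 ± 0.21 in gvs1-1 and fell by 0.58 ± 0.21 in Col (limma adjusted p = 0.029; called in 16 of 26 settings), against the rise of RPS18C in gvs1-1. The other probe of RPS18C gave 0.42 in gvs1-1 and -0.40 in Col, so its sign differed between the probes in Col. For S6, RPS6A fell in gvs1-1 while RPS6B stood at 0.17 ± 0.16 there (limma adjusted p = 0.38) and at -0.30 ± 0.16 in Col (limma adjusted p = 0.11). For S5, RPS5B stood at -0.10 ± 0.18 in gvs1-1 and -0.22 ± 0.18 in Col, and RPS5A at 0.33 ± 0.17 and -0.21 ± 0.17, none of which passed. For L23a, RPL23aA fell in gvs1-1 and RPL23aB was at 0.16 ± 0.18 there. For L5, RPL5B had -0.77 ± 0.26 in Col by its brightest probe (limma adjusted p = 0.023), 0.53 by its other probe, and 0.50 in the authors' table (limma adjusted p = 0.023), so no direction is given for it. Of the 35 members with more than 1 probe, 23 had a negative age difference by every probe in gvs1-1 and 31 did in Col, and RPL5B in Col was the single case of probes that passed in opposite directions.

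**Figure D4:**
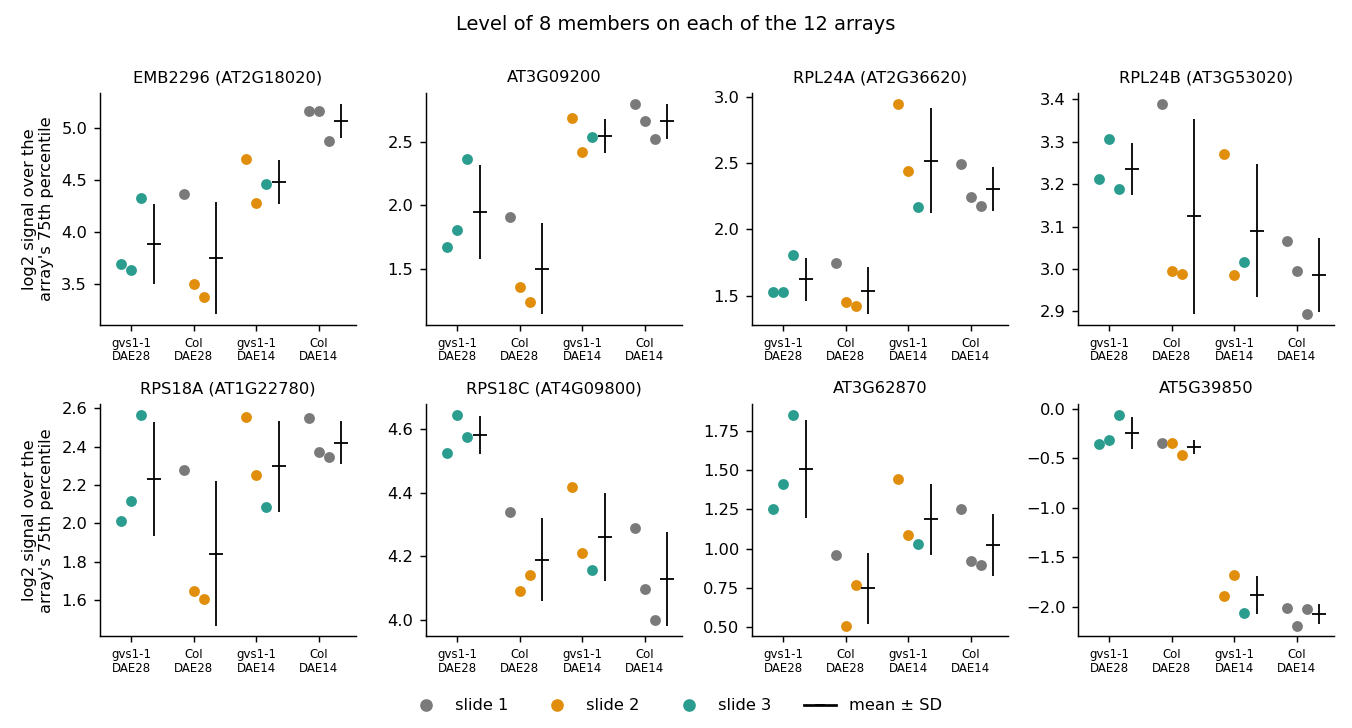
Level (log2 signal over the array's 75th percentile, own scale per panel) of 8 members on each array, coloured by slide, with the mean and SD of the 3 arrays beside them. EMB2296, AT3G09200 and RPL24A are lower at DAE28, AT5G39850 is higher at DAE28 on every array of both genotypes, and the slide 1 array is the highest Col DAE28 point in all 8 panels.

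Related gene lists, themselves chosen with earlier results of these data known, are given beside the members. Plastid ribosomal proteins build the ribosomes that translate chloroplast messages. Of 32 plastid ribosomal protein genes, 32 fell with age in gvs1-1 (median -1.83) and 32 in Col (median -2.69). RPL15 of the plastid fell by 2.70 ± 0.29 in gvs1-1 (limma adjusted p = 3e-05) and by 4.30 ± 0.29 in Col (limma adjusted p = 6e-07). At DAE28, 31 of the 32 were higher in gvs1-1 (median 0.90), among them RPL4 of the plastid with 1.49 ± 0.27 (limma adjusted p = 0.0029), and 17 passed the test of the difference in age change; with the slide as a block these counts were 9 and 6. Within slide 3 the plastid median was -1.61 in gvs1-1 and within slide 1 it was -2.89 in Col, with all 32 genes falling in each, where the median of the cytosolic genes was 0.04 in gvs1-1 and -0.12 in Col.

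Most genes for ribosome assembly rose in both genotypes. Of 34, 24 rose and 0 fell with age in gvs1-1 (median 0.59), and 18 rose and 1 fell in Col (median 0.41). That is 70.6% and 52.9% rising, against 31.4% and 35.7% of all genes. NOP56, a core protein of box C/D snoRNA particles, rose by 0.60 ± 0.14 in gvs1-1 (limma adjusted p = 0.0034) and by 1.02 ± 0.14 in Col (limma adjusted p = 6.8e-05). AT5G27120 rose by 1.29 ± 0.22 in gvs1-1 and by 1.46 ± 0.22 in Col. The helicase gene PRH75 rose by 1.36 ± 0.20 in gvs1-1 (limma adjusted p = 0.00025), and XRN2 was the gene that fell in Col, by 0.65 ± 0.21 (limma adjusted p = 0.018). Of 44 translation factor genes, 12 rose and 7 fell in gvs1-1 (median 0.08), and 10 rose and 8 fell in Col (median -0.04). These shares were below those of all genes. They were 27.3% and 15.9% in gvs1-1, against 31.4% and 30%, and 22.7% and 18.2% in Col, against 35.7% and 36.3%. The release factor gene ERF1-1 rose by 0.78 ± 0.15 in gvs1-1 and by 1.25 ± 0.15 in Col, while AT5G12110 fell by 2.07 ± 0.25 and by 3.23 ± 0.25. At DAE28 the initiation factor 5A gene ELF5A-3 was lower in gvs1-1 by -0.92 ± 0.11 (limma adjusted p = 0.00041).

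Of 13 genes of the TOR pathway and of regulators, 8 rose and 0 fell in gvs1-1 (median 0.37), and 8 rose and 1 fell in Col (median 0.40). That is 61.5% rising in each genotype, against 31.4% of all genes in gvs1-1 and 35.7% in Col. The S6 kinase gene S6K2 stood at 1.18 ± 0.08 in gvs1-1 DAE28, 2.22 ± 0.11 in Col DAE28, -0.66 ± 0.22 in gvs1-1 DAE14 and -0.74 ± 0.28 in Col DAE14 (SD, n = 3 each). It rose by 1.84 ± 0.15 in gvs1-1 (limma adjusted p = 7.5e-06) and by 2.96 ± 0.15 in Col (limma adjusted p = 1.8e-07), and the rise was smaller in gvs1-1 by the test of the difference (-1.12 ± 0.22; limma adjusted p = 0.0096). TCP20, a transcription factor known to bind promoters of ribosomal protein genes, rose by 0.73 ± 0.11 in gvs1-1 and by 0.82 ± 0.11 in Col. PUR ALPHA-1, which has been tied to the same promoters, fell by 0.43 ± 0.16 in Col (limma adjusted p = 0.032). RAPTOR2 missed the threshold, with -0.33 ± 0.13 in gvs1-1 (limma adjusted p = 0.051) and -0.29 ± 0.13 in Col (limma adjusted p = 0.070).

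A further 18 cytosolic ribosomal protein genes, found by their RefSeq names and outside the list of 49, were counted after the files had been seen. With age 2 rose and 1 fell in gvs1-1 (median -0.05), and 4 rose and 8 fell in Col (median -0.29). In gvs1-1 that is 11.1% rising and 5.6% falling, against 31.4% and 30% of all genes. In Col it is 22.2% and 44.4%, against 35.7% and 36.3%. SAG24, a ribosomal protein gene first known as a senescence-associated gene, rose by 0.53 ± 0.09 in gvs1-1 (limma adjusted p = 0.00052) and by 1.45 ± 0.09 in Col (limma adjusted p = 3.6e-07), and the smaller rise in gvs1-1 passed the test of the difference (-0.92 ± 0.12; limma adjusted p = 0.0032). RPL3B rose by 0.54 ± 0.17 in gvs1-1 and by 0.81 ± 0.17 in Col, where its paralogue RPL3A fell. P40, the small-subunit protein SA, fell by 0.51 ± 0.18 in gvs1-1 and by 0.87 ± 0.18 in Col, and RPL34 fell by 1.11 ± 0.19 in Col.

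**Figure D5:**
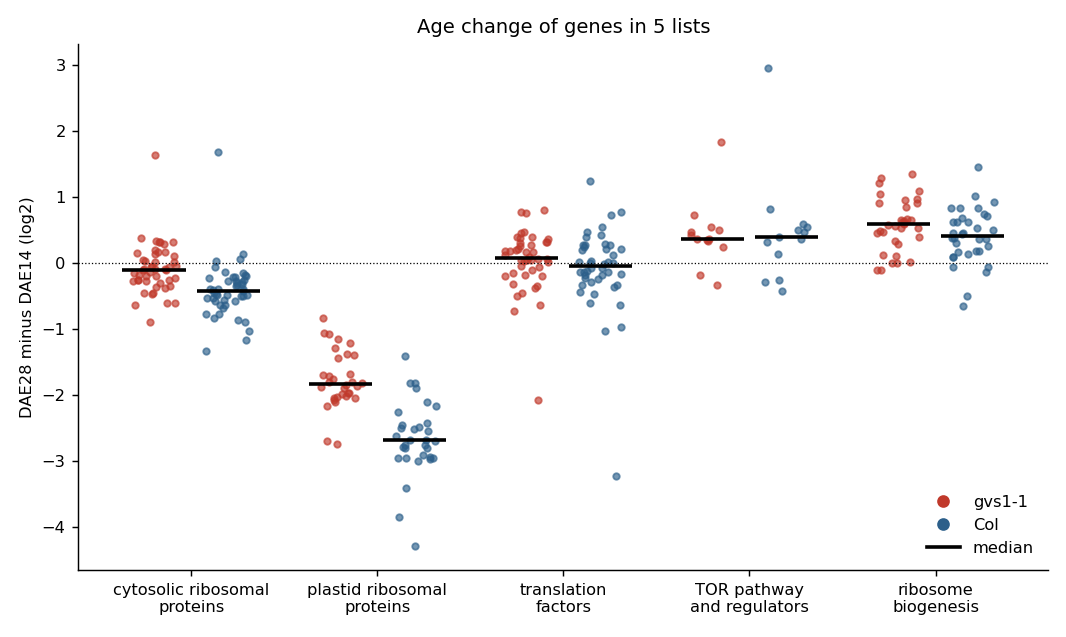
Age change (DAE28 minus DAE14, log2) of each gene in 5 lists, in gvs1-1 and in Col; bars are medians. The plastid ribosomal proteins lie at -1.83 and -2.69, the cytosolic ones near -0.10 and -0.42 with AT5G39850 above them, and the ribosome biogenesis genes at 0.59 and 0.41.

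Markers of leaf cell types were present, as the label leaf requires, and moved with age, and their part in the members' change was not tested. All 6 mesophyll markers fell in both genotypes, and 2 of them were lower in gvs1-1 at DAE14, with a summed level (in units of the 75th percentile) of 559 to 701 in gvs1-1 DAE28, 431 to 506 in Col DAE28, 1025 to 1148 in gvs1-1 DAE14 and 1785 to 2097 in Col DAE14. Of 5 guard cell markers 4 fell in gvs1-1, and 3 fell and 1 rose in Col, and together they gave 2.34 to 2.76 in gvs1-1 DAE28, 2.98 to 4.24 in Col DAE28, 59.2 to 67.8 in gvs1-1 DAE14 and 62.1 to 77.1 in Col DAE14. The 6 vascular markers, of which 5 fell in each genotype, gave 18.6 to 20.6, 18.8 to 22.7, 37.7 to 38.0 and 32.4 to 39.2 in the same 4 groups, and the 4 measured epidermis and trichome markers, which all fell, gave 6.33 to 7.16, 3.40 to 4.86, 15.1 to 17.8 and 16.4 to 17.8. Markers of flowers and meristems, roots and seeds were measured in 1 of 5, 2 of 4 and 1 of 4 cases, and none of the measured ones summed to more than 1.87 in any array.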

How the data were processed

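RNA of 12 leaf samples was labelled with Cy3, per the labels' protocols, and hybridised to one-colour Agilent arrays. The deposited files hold spot intensity on a linear scale, written by Feature Extraction (11.5.1.1 per the file headers). The authors' deposited table holds 1 log2 value per locus, with a scaling not given in the sources used here, and served as an alternative; its values correlated at 0.956 to 0.976 with the log2 processed signal across 13416 loci with 1 probe.

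The log2 processed signal was set relative to each array's 75th percentile. Of 43603 probes, 34348 matched a locus through RefSeq accessions (TAIR10.1 table); 166 with an outlier mark were left out, and a probe was kept if some group had it well above background on each of its 3 arrays. The probe with the highest mean stood for a gene. limma 3.58.1 in R 4.3.3 fitted the 4 group means over all 12 arrays, with Benjamini-Hochberg adjustment over 19152 genes per comparison, and was tested on simulated data. The number of arrays limits the precision. Normexp used the median spot signal, since the mean was not among the columns used here. The 48 members and all gene lists were chosen with earlier results of these data known. Members named were the 4 highest and 4 lowest per comparison, a fixed panel of 15, and family pairs; other lists gave the 2 extremes each way, of which 1 gene is not reported here. No array pair held identical values (0).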

Additional observations from a re-analysis of the deposited data

Results flagged for a closer look

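No member differed in age change between the genotypes by its own test, so the results below are genes of the neighbouring lists whose difference in age change (gvs1-1 over Col, log2) passed limma's test. Among plastid ribosomal protein genes the difference was above 0, a smaller fall in gvs1-1, in RPL15 (1.605; limma adjusted p = 0.024), AT4G01310 (1.31; 0.016), RPL4 (1.30; 0.041), AT1G29070 (1.11; 0.038), RPL12-A (1.08; 0.0032), AT5G65220 (1.05; 0.011), RPL24 of the plastid (0.73; 0.035) and emb2184 (0.60; 0.038). Of the ribosome biogenesis genes, AT3G05060 had -0.78 (limma adjusted p = 0.049). Of the translation factors, AT5G12110 had 1.16 (limma adjusted p = 0.047) and EIF4B1 -0.46 (0.036). ELF5A-3 had -0.89 (limma adjusted p = 0.0053): it fell by 0.50 in gvs1-1 and rose by 0.39 in Col, with no overlap between stages in either. S6K2 had -1.12 (limma adjusted p = 0.0096) and SAG24 -0.92 (0.0032). With 3 arrays per group, single arrays were not tested for standing apart.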

How the results depend on the processing

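The signs of the members' medians in Col and at DAE28 held under every scaling tried. The counts there, and their side of the all-gene share, did not hold. For age in gvs1-1 the shares of members higher and lower lay below the all-gene shares under every scaling, block and the authors' table. In the order higher and lower, age in Col gave 3 and 14 with quantile normalization, 1 and 9 with median centring and 4 and 17 in the authors' table. It gave 1 and 20 with normexp, 1 and 28 with the mean of kept probes, and 1 and 25 with only probes above background on all arrays. With the slide as a block it gave 2 and 2, and with the scan day as a block 1 and 9. Its median was -0.12 within slide 1 and within scan day 1. Age in gvs1-1 gave 9 and 1 (median 0.14), 2 and 3, and 10 and 1 for the same scalings and table, 1 and 2 with normexp, 2 and 4 with no filter on dim probes, 2 and 0 with the slide and 1 and 3 with the scan day as a block, 2 and 2 with only the arrays compared, and 1 and 0 within slide 3 and within scan day 1. The genotype difference at DAE28 gave 10 and 1, 1 and 0, and 10 and 0 for the scalings and table, 2 and 0 with normexp, 3 and 0 with no filter on dim probes, 1 and 0 with only the arrays compared, 0 and 0 with the slide (median 0.62) or scan day as a block, and 0 and 1 within scan day 1 (median -0.04). The share of members higher at DAE28 was 2.1% with median centring, 4.2% with normexp, 6.2% with no filter and 2.1% with only the arrays compared. Of all genes 13.82%, 8.51%, 12.6% and 11.99% were higher in the same order, so these counts lay below the background. At DAE14 the slide block moved the median to 0.46. The settings within a slide or scan day were added after seeing the data and take the lone array to vary like the others. The age differences of the slide fit rest on the same lone arrays and repeat the within-slide estimates, though both count among the settings tallied. No slide holds both genotypes at the same stage, so the genotype differences of the slide fit run through arrays of the other stage.

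Leaving out 1 array at a time, members lower in Col ranged from 10 to 34 and higher stayed at 1; in gvs1-1 lower ranged from 1 to 8 and higher from 1 to 2; at DAE28 higher ranged from 1 to 16; in the difference of age changes higher ranged from 0 to 12. The replicate block gave 23 lower in Col, 6 lower in gvs1-1 and 5 higher at DAE28 and moved no members' count by over 1.5 times; equal replicate numbers deviated together by more than 0.1 in 4 of 18 pairs, so they were not taken to pair samples. RPL10A turned to a rise in Col, 0.67 with quantile normalization and 0.42 in the authors' table. The cause was not tested. Values of the panel and of the highest and lowest genes per comparison and list were counted across settings. Of these, 3602 kept the call, and those past the threshold in neither fit could change sign. Another 264 lost the call, 89 gained it and 2, those of RPL10A, reversed. PGY2 and RPL5B, whose sign for age in Col also turned, were not among the values counted for that comparison. Over all genes, 60 were called at DAE14, against 2 to 277 elsewhere; 6337 at DAE28, against 3750 with normexp, 1763 with the slide as a block and 4071 within scan day 1; 3572 in the difference of age changes, against 1472 with normexp, 1044 and 897 with the slide and the scan day as a block, 1489 within scan day 1 and 1925 to 4919 leaving out 1 array; and 11750 for age in gvs1-1, against 6951 within slide 3.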

Other observations

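Across 26 settings, 28 of the 48 members had a negative age difference in Col in every one and 2, AT5G39850 and RPL24B, a positive one. The settings tallied include fits without an array of a group outside the comparison, which leave the difference as it is. 10 members were called lower in Col in at least 20 settings, and 35 in at least 1. For age in gvs1-1 11 members were negative and 11 positive in every setting. For the genotype difference at DAE28, 21 members were positive in all 25 settings and 0 were negative in all.

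The summed linear signal of the members gave another view of the family, as a share of the summed signal of all 19152 genes tested, each by its 1 chosen probe. It was 1.01% ± 0.11 in gvs1-1 DAE28, 0.839% ± 0.142 in Col DAE28, 0.883% ± 0.118 in gvs1-1 DAE14 and 0.827% ± 0.080 in Col DAE14 (SD, n = 3 each). By this measure Col DAE28 and Col DAE14 differed by less than the spread between arrays. The share was not lower at DAE28 than at DAE14 in either genotype. The summed signal of all genes can itself change with age, and its change was not tested. An even share thus does not show that the members' own signal was kept. By level, the members' median difference with age was -0.42 in Col and -0.10 in gvs1-1. The share of summed signal was 1.00%, 0.760% and 0.754% on the 3 Col DAE28 arrays.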
